A study of Mus musculus with 2 samples.

Results

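Hedgehog signalling between the lining of the ureter and the mesenchyme around it was described through 9 genes, namely the ligand gene Shh, the receptor gene Ptch1, the transcription factor genes Gli1, Gli2 and Gli3, the inhibitor gene Hhip and the forkhead genes Foxf1, Foxf2 and Foxl1. Every non-control probe on the arrays that carries 1 of these names was taken. That gave 11 of the 39429 probes, and the 9 genes stand among 20506 genes tested. All 11 probes were well above background in both groups. Foxf1 carries an older name, Foxf1a, in the scanner files and was found through its RefSeq accession, whereas the other 8 genes are named as here.

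The data were 2 dual-dye Agilent arrays of RNA from ureters of NMRI mouse embryos at stage E14.5. Each array compared 1 control RNA, genotype Tbx18(+/+);Gata2(fl/?), with 1 RNA labelled Gata2cKO, genotype Tbx18(cre/+);Gata2(fl/fl). Both RNAs were female on array 1 and male on array 2, and the dyes were exchanged between the arrays, so the sex of the RNAs and the orientation of the dyes cannot be told apart. Floxed Gata2, a gene for a zinc finger transcription factor, was thus shared by all 4 RNAs. The Cre recombinase, made from the Tbx18 locus and so in Tbx18-expressing mesenchyme, was carried only by the Gata2cKO embryos, so 1 of their Tbx18 alleles is the Cre allele. How many embryos were pooled for an RNA, and whether the RNAs came from separate litters, is not given in the labels, so p-values measure only the spread between these 2 arrays.

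Ureteric epithelium secretes Sonic hedgehog, which binds Patched1 on mesenchymal cells, releases Smoothened at the primary cilium and lets the Gli transcription factors act. Gli2 and Gli3 carry the first response, Gli3 often as a repressor, and Gli1, Ptch1 and Hhip are themselves target genes, of which Ptch1 and Hhip feed back to dampen the signal. Forkhead genes of the Foxf and Foxl class are mesenchymal targets of the pathway, and in the ureter the signal is known to maintain growth and smooth muscle formation of the mesenchyme.

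All ratios below are log2 ratios of Gata2cKO over control, 1 per array, and levels are log2 intensities normalised within and between the arrays. A level can be compared between RNAs for the same probe, not between probes. A gene passed the test when its p from limma, adjusted by Benjamini-Hochberg over all genes tested, was under 0.05. In bulk RNA, fewer cells of a type and less RNA per cell cannot be told apart.

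Probes of Ptch1 and Hhip are shown first because the direction for Ptch1 and the size for Hhip rest on which probe is read. Those of Foxl1 and Shh follow, whose ratios the later paragraphs turn on. Each array probe has 60 bases. Coordinates are those of the scanner files on mm9, and an mm9 annotation was not used here, so exons and untranslated regions were not assigned. Except for the second Ptch1 probe, which is whole, the first 30 bases are printed, 5′ to 3′.
Ptch1, probe 1, at chr13:63610298-63610357, minus strand: catttggatgttttaatttgtaaaagaaaa
Ptch1, probe 2, at chr13:63612879-63612938, minus strand: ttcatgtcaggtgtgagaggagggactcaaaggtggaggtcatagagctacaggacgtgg
Hhip, probe 1, at chr8:82490729-82490788, minus strand: tatagaattatgaccatgagcatgaaagac
Hhip, probe 2, at chr8:82494280-82494339, minus strand: gcagtagccttcatctgtaggttaatagtc
Foxl1, at chr8:123654402-123654461, plus strand: ggtccacagtgatgtctcacaacaactaag
Shh, at chr5:28783983-28784042, minus strand: aatttattattgtgtgaactgtactcacag

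The Ptch1 probes start 2.58 kb apart and the Hhip probes 3.55 kb apart. Ptch1 probe 1 is rich in A and T, with a GC content of 21.7% over its 60 bases, against 53.3% for Ptch1 probe 2. Read along the printed strand, Ptch1 probe 2 has 1 of 3 frames free of stop codons and Ptch1 probe 1 has 0 of 3. The Hhip probes are alike in base content, at 35% for probe 1 and 38.3% for probe 2.

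None of the 9 genes passed the test. Over all genes tested 18 passed, or 0.0878%, of which 9 (0.0439%) were higher and 9 (0.0439%) lower in Gata2cKO RNA. Taken probe by probe, 0 of the 11 hedgehog probes passed, and over all probes tested 0.0585% did. Foxl1 had the largest mean ratio in size of the 9 genes, at 1.60-fold higher, and Hhip was lower with both of its probes on both arrays. A difference of 1.5-fold or more, in 1 direction and on each array, was found for 0 of the 9 genes and for 0.712% of all genes. An unadjusted p under 0.05 was reached by 2 of the 9 genes, Foxl1 and Hhip, and by 7.17% of all genes. Of the 11 probes, 3 reached it, that of Foxl1 and both of Hhip, as did 7.08% of all probes. The 9 genes had a median mean ratio of -0.00113, beside 0.00284 for all genes tested.

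By sign, 2 of the 9 genes, Gli1 and Foxl1, were higher on both arrays, as were 27% of all genes. Another 3, Gli3, Hhip and Foxf1, were lower on both, as were 26.2% of all genes. The remaining 4, Shh, Ptch1, Gli2 and Foxf2, had opposite signs on the arrays, as had 46.8% of all genes. These shares are close to those over all genes. By level, the control and Gata2cKO RNAs did not overlap for 5 of the 11 probes, those of Gli1, Foxf1 and Foxl1 and both of Hhip, beside 38.5% of all probes tested. Probe by probe, 3 of 11 were higher on both arrays and 4 of 11 lower on both, beside 26.5% and 26.7% of all probes.

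**Figure D1:**
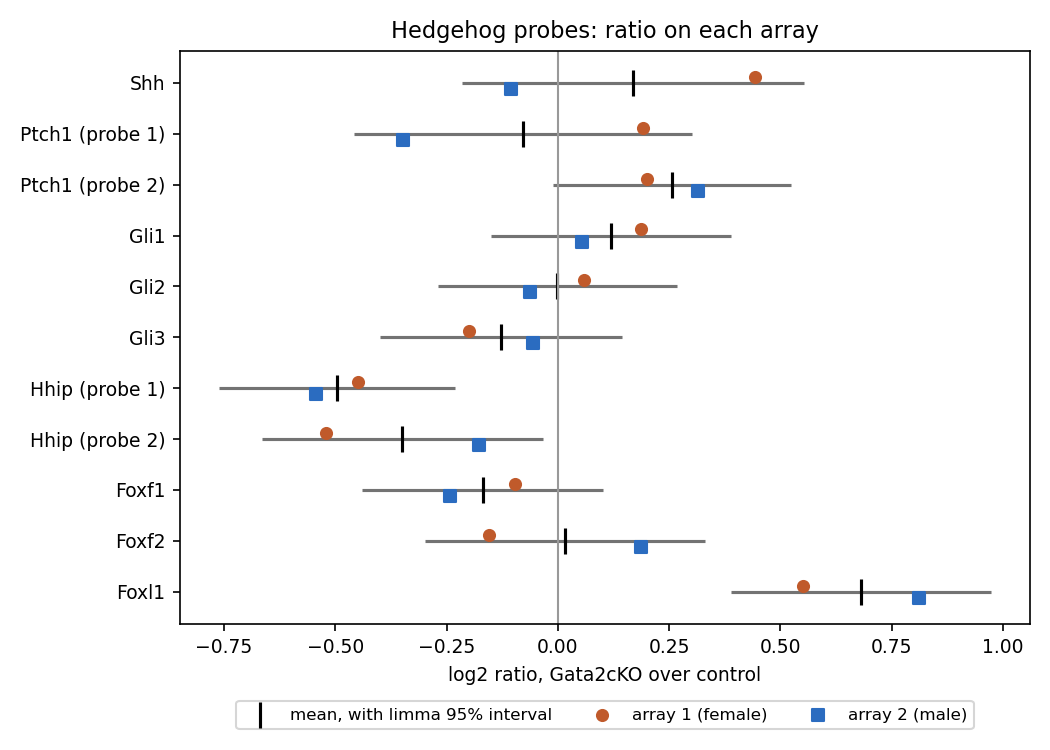
Log2 ratio of Gata2cKO over control for each of the 11 hedgehog probes, with the circle for array 1 (female), the square for array 2 (male), the tick for their mean and the bar for limma's 95% interval. Foxl1 lies to the right of 0 and both Hhip probes to the left on both arrays, whereas the Ptch1 probes part on array 2, at -0.35 and 0.31.

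Shh, the ligand gene of the urothelium, did not run the same way on the arrays. Its level was 9.09 in the control and 9.53 in the Gata2cKO RNA on array 1, and 9.79 and 9.68 on array 2. The female control was thus the lowest of the 4 RNAs and the male control the highest, so that the Gata2cKO levels lay between them. The ratios were 0.44 and -0.11, with a mean of 0.17 ± 0.39 (SD, n = 2 arrays) and an adjusted p of 0.902 in limma. The 95% interval of the mean ratio ran from -0.22 to 0.55.

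The Shh probe is 1 of 303 tested probes printed at 10 spots, so its measuring error on each array can be seen. On array 1, 9 spots were usable and their ratios ran from 0.30 to 0.55, with a median of 0.44 and an SD of 0.074. On array 2 the 10 spots ran from -0.15 to -0.022, with a median of -0.11 and an SD of 0.040. All 9 spots of the female array lay above 0 and all 10 of the male array below it. Spots of an array share the RNA and the hybridisation, so they are no replicates of the genotype. The median SD over spots of the 303 probes was 0.045 on array 1 and 0.046 on array 2.

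**Figure D2:**
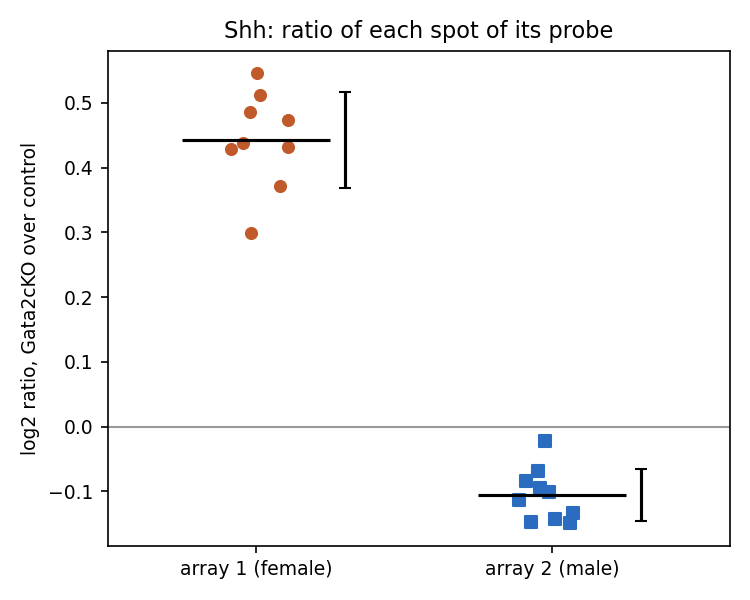
Log2 ratio of Gata2cKO over control at each usable spot of the Shh probe, 9 on array 1 (female) and 10 on array 2 (male), spread sideways at random within an array. The line is the mean over spots and the bar 1 SD, 0.074 and 0.040, and the spots of the arrays do not meet.

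Urothelial marker genes were read beside Shh. Of 14 markers tested, 9 were higher on both arrays and 0 lower on both, beside 27% and 26.2% of all genes. Their median ratio was 0.16, and 0 passed the test. Their summed level in the Gata2cKO RNA was 330033 beside 292803 in the control on array 1, and 369405 beside 346429 on array 2, as linear intensity. Over all genes tested the sums were 385633000 beside 341214000 on array 1 and 344366000 beside 381925000 on array 2, so they too were higher in Gata2cKO RNA on array 1. The ratio was larger on array 1 for 11 of the 14 markers and on array 2 for 3, Epcam (-0.22 and 0.12), Trp63 (-0.023 and 0.090) and Krt19 (0.044 and 0.052). The like share of all genes was not counted, so this count is not read as a trait of the urothelium. A ratio above 0.5 on array 1 with one below -0.5 on array 2 was found for 281 of all genes, and the reverse for 8. Among the uroplakin genes, which mark the surface of the urothelium, the gap between arrays varied. Upk3a stood at 0.89 and 0.14, Upk2 at 0.56 and -0.14, and Upk3b at 0.68 and -0.23 on arrays 1 and 2. It was smaller for Upk1a, at 0.24 and -0.044, and for Upk1b, at 0.37 and 0.28. The part of the urothelial genes, of sex and of dye in the Shh ratios was not tested. For Shh, 0.5 of the difference between the array ratios was 0.27, a value in which dye, sex and array cannot be told apart. Of all genes, 6.40% had one at least as large in size.

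Ptch1, the Shh receptor gene and a target of the pathway, gave readings that depended on the probe. With probe 1, the brighter and so the one that stood for the gene, the levels were 8.37 and 8.56 in control and Gata2cKO RNA on array 1 and 8.73 and 8.38 on array 2. The male control was the highest, and the groups overlapped. Its ratios of 0.19 and -0.35 had a mean of -0.078 ± 0.38 (SD, n = 2 arrays), with an adjusted p of 0.975 in limma and a 95% interval from -0.46 to 0.30.

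With probe 2, Ptch1 levels were 7.73 and 7.93 on array 1 and 7.94 and 8.25 on array 2, control first. The Gata2cKO RNA was the higher of the pair on both arrays, although the female Gata2cKO RNA stood just under the male control. Ratios of 0.20 and 0.31 had a mean of 0.26 ± 0.080 (SD, n = 2 arrays), with a 95% interval from -0.0097 to 0.52 and an adjusted p of 0.711 in limma over probes. On array 1 the probes differed by 0.0098, and on array 2 probe 1 was lower than probe 2, with a difference of -0.66. The direction of Ptch1 in these arrays therefore rested on which probe was read on array 2. Both probes were dim, with raw spot signals from 151 to 317 for probe 2 and from 242 to 550 for probe 1.

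Gli1, the target gene most often read as a measure of hedgehog activity, was close to level. Its levels were 13.81 and 13.99 on array 1 and 13.93 and 13.99 on array 2, control first, so both Gata2cKO RNAs stood above both controls, by little. The ratios of 0.19 and 0.054 had a mean of 0.12 ± 0.093 (SD, n = 2 arrays), with an adjusted p of 0.899 in limma. A 95% interval from -0.15 to 0.39 held for the mean. With median centring in place of loess the ratio on array 2 turned to -0.15 and that on array 1 was 0.33, where the medians of all genes were -0.13 and 0.099.

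Gli2, the main activator, had levels of 12.92 and 12.98 on array 1 and 13.00 and 12.93 on array 2, control first. The 4 RNAs overlapped, and the mean ratio was -0.0011 ± 0.086 (SD, n = 2 arrays) with a 95% interval from -0.27 to 0.27. Gli3, the main repressor, had levels of 14.701 and 14.501 on array 1 and 14.761 and 14.706 on array 2. Both Gli3 ratios were below 0, at -0.20 and -0.056, but the male Gata2cKO RNA stood above the female control. Neither gene passed the test, with adjusted p of 0.999 for Gli2 and 0.889 for Gli3 in limma.

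Hhip encodes a membrane protein that binds hedgehog ligands and limits their range, and is itself a target of the pathway. With probe 1 its levels were 9.50 and 9.05 on array 1 and 9.67 and 9.13 on array 2, control first. With probe 2 the levels were 11.83 and 11.31 on array 1 and 11.62 and 11.45 on array 2. With both probes the control RNAs were the 2 higher of the 4, and the groups did not overlap.

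The ratios of Hhip probe 1 were -0.45 and -0.54, with a mean of -0.50 ± 0.068 (SD, n = 2 arrays), or 1.41-fold lower. For probe 2, the brighter, they were -0.52 and -0.18, with a mean of -0.35 ± 0.24 (SD, n = 2 arrays), or 1.27-fold lower. The 95% intervals ran from -0.76 to -0.23 for probe 1 and from -0.66 to -0.033 for probe 2, and 500 genes of the 20506, Hhip included, were at least as low as probe 2. Neither probe passed: the adjusted p in limma was 0.277 for probe 1 over probes and 0.644 for the gene. On array 1 the probes differed by 0.073, and on array 2 by -0.37, probe 1 being the lower. As with Ptch1, the probes parted on array 2, here in size and not in direction.

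**Figure D3:**
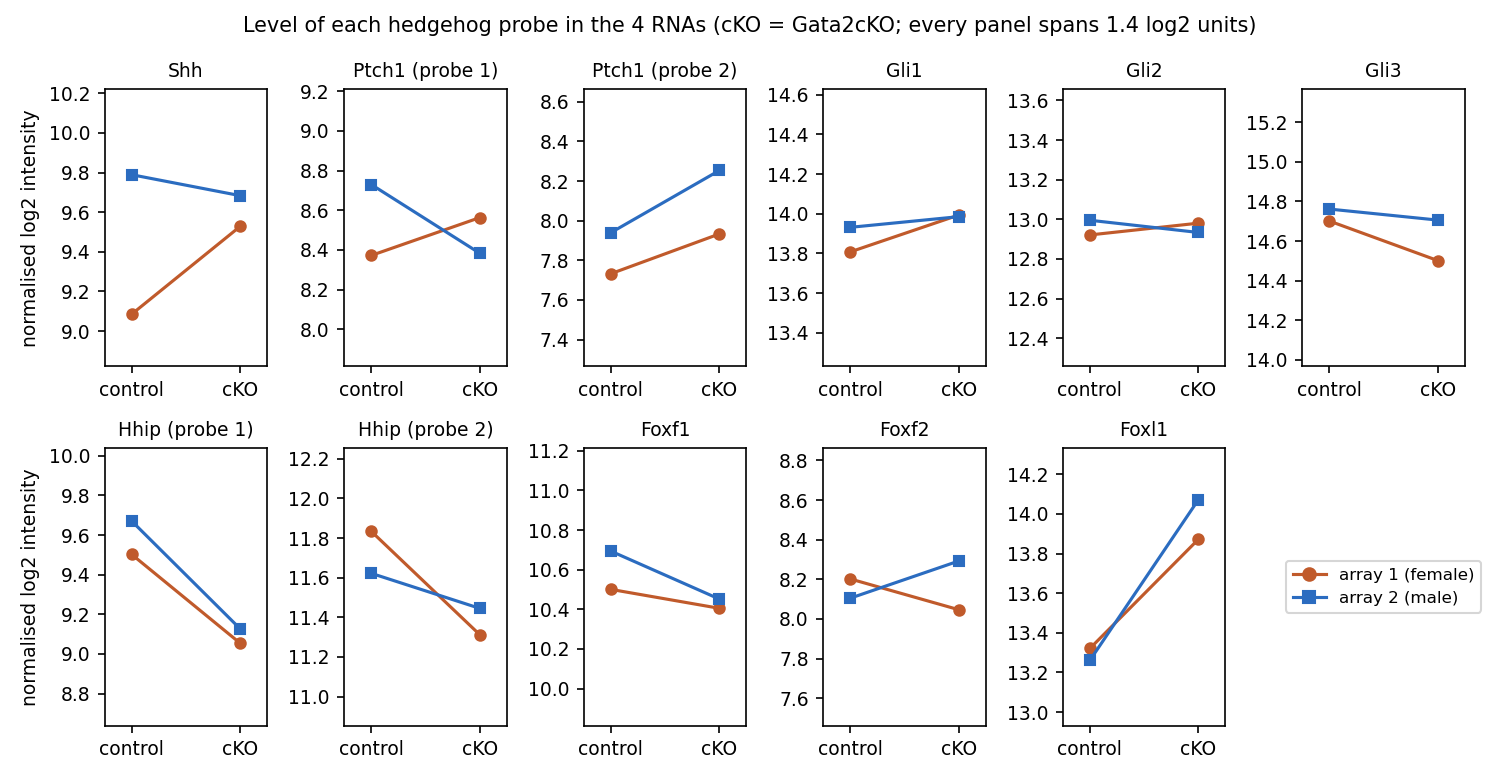
Normalised log2 intensity of each hedgehog probe in the control and Gata2cKO (cKO) RNAs, circles for array 1 (female) and squares for array 2 (male), with a line joining the RNAs of an array and every panel of the same height. Lines run up together for Foxl1, from 13.26 and 13.32 to 14.07 and 13.87, and down together for both Hhip probes, whereas the slopes are opposite for Shh, Ptch1 probe 1, Gli2 and Foxf2.

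Foxl1, a forkhead gene of the mesenchyme, stood furthest from 0 of the 9 genes. Its levels were 13.32 and 13.87 on array 1 and 13.26 and 14.07 on array 2, control first. Both Gata2cKO RNAs lay clearly above both controls, and the controls differed from each other by far less than either did from its partner. Ratios of 0.55 and 0.81 had a mean of 0.68 ± 0.18 (SD, n = 2 arrays), with a 95% interval from 0.39 to 0.97. In raw spot signals the female array read 7693 in the control and 20304 in the Gata2cKO RNA, and the male array 13222 and 12599. These are before normalisation, and on both arrays the channel with dye 647, which held the Gata2cKO RNA on array 1 and the control on array 2, had the higher median signal. Foxl1 was higher on both arrays, and 78 of the 20506 genes, itself included, were at least as high.

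The adjusted p of Foxl1 was 0.197 in limma, so it was not among the 18 genes that passed. With a trended and robust prior in place of the plain one, the adjusted p of Foxl1 was 0.00500, and 376 genes then passed. Under the other alternatives with both arrays it ran from 0.0759 to 0.99986, so the call rested on the choice of prior. Across the same alternatives its mean ratio ran from 0.65 to 1.15.

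Foxf1, which is needed for smooth muscle in several hollow organs, had levels of 10.50 and 10.41 on array 1 and 10.69 and 10.45 on array 2, control first. Its ratios of -0.096 and -0.24 had a mean of -0.17 ± 0.10 (SD, n = 2 arrays), with an adjusted p of 0.821 in limma. Both controls stood above both Gata2cKO RNAs. Foxf2, its close relative, had levels of 8.20 and 8.05 on array 1 and 8.11 and 8.29 on array 2. The Foxf2 ratios of -0.16 and 0.19 pointed apart, and their mean was 0.016 ± 0.24 (SD, n = 2 arrays), with a 95% interval from -0.30 to 0.33. The Foxf2 probe was dim, with raw spot signals from 219 to 352. The mean ratios of the 3 forkhead genes were 0.68, -0.17 and 0.016 for Foxl1, Foxf1 and Foxf2. The 95% intervals of Foxf1, from -0.44 to 0.10, and of Foxf2 both held 0.

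In the RefSeq gene table, Foxf1, Mthfsd, Foxc2 and Foxl1 follow each other as neighbouring protein-coding genes on chromosome 8. Foxc2, a forkhead gene next to Foxl1, had ratios of 0.12 and 0.24, and Mthfsd, between Foxf1 and Foxc2, had -0.14 and 0.051. Fbxo31, beyond Foxl1, had 0.018 and -0.27. Neighbours of Foxl1 that were tested thus had mean ratios between -0.12 and 0.18, and none passed the test. Near Foxf2, Foxq1 stood at 0.38 and -0.065 and Foxc1 at -0.32 and -0.12, and neither passed.

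Cell type markers give the setting for the mesenchymal genes. Of 8 ureteric mesenchyme markers, 5 were higher in Gata2cKO RNA on both arrays and 1 lower, beside 27% and 26.2% of all genes. The median ratio of the 8 was 0.33. Higher on both were Tshz3, Tbx18, Tbx2, Tbx3 and Bmp4, Sox9 was lower, and Aldh1a2 and Wt1 had opposite signs. Tbx2, Tbx3 and Bmp4 are also targets on the wider hedgehog list described below, and the Tbx18 locus carries Cre, so these markers are not a separate reading. The summed linear level of the 8 markers was 211805 beside 191631 on array 1 and 227004 beside 180661 on array 2, Gata2cKO first. In the same order, the sums over all genes tested were 385633000 beside 341214000 and 344366000 beside 381925000. Bright probes weigh most in these sums, among the mesenchyme markers that of Bmp4, with a log2 brightness of 16.4. The 8 smooth muscle markers were all lower on both arrays, beside 26.2% of all genes (median ratio -0.77). Their summed level was 58308 beside 76561 on array 1 and 55087 beside 80887 on array 2, with Smtn as the brightest probe, at 14.7. Of 9 neuron and glia markers 8 were lower on both arrays, beside the same 26.2%, the median ratio being -1.05, and Prph passed the test. The 6 endothelial markers had a median of 0.00033, the 6 macrophage markers -0.37, and the 3 kidney markers tested 0.31. Their part in the ratios of Foxl1, Hhip and the other hedgehog genes was not tested. Every listed marker of urothelium, mesenchyme and smooth muscle was bright enough to be tested, whereas Nphs1, Slc12a1 and Umod of the kidney were not.

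Gata2 itself read higher in the RNA labelled Gata2cKO, with ratios of 0.33 and 0.54 and an adjusted p of 0.416 in limma over probes. Which part of the gene was floxed is not given in the labels, so whether this probe checks the deletion is not known, and every direction here rests on the labels. Tbx18, whose locus carries Cre, read 0.65 and 0.15, with an adjusted p of 0.666 over probes. The median spot signal was 433 and 754 for control and Gata2cKO RNA on array 1 and 754 and 428 on array 2, and 66.0% to 69.4% of spots were well above background in the 4 channels.

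A wider list of 61 hedgehog genes, the 9 genes included, had 58 tested, of which 22 were higher and 14 lower on both arrays, beside 27% and 26.2% of all genes, and 0 passed. Their median ratio was 0.011, and 7 of the 58 had an unadjusted p under 0.05, beside 7.17% of all genes. Without the 9 genes, 49 were tested, with 20 higher and 11 lower on both and a median of 0.015.

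Of 9 genes for ligands and their release, 2 were higher and 3 lower on both arrays. For this and each role below, the shares of all genes were 27% and 26.2%. Disp2, a relative of the Dispatched protein that releases the lipid-modified ligand from secreting cells, had the largest ratios of the list, at -1.16 and -1.06. Its mean was -1.11 ± 0.072 (SD, n = 2 arrays), with an adjusted p of 0.0505 in limma, just outside the threshold. The Disp2 probe was dim, brighter than the probes of only 8.60% of all genes, and its mean ratio was -1.80 with processed signals, -1.30 with an offset of 16 and -0.59 in the authors' deposited table. Over the alternatives with both arrays its adjusted p ran from 4.35e-05 with the trended and robust prior to 1 in the deposited table, and with median centring it was 0.805. Scube1, for a secreted carrier of the ligand, had -0.21 and -0.026. Ihh and Dhh, the other hedgehog ligand genes, had opposite signs on the arrays, at 0.17 and -0.36 for Ihh and at -0.39 and 0.12 for Dhh.

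Among 10 receptor genes, 2 were higher and 5 lower on both arrays, and the median ratio was -0.099. Lrp2, for a large endocytic receptor of epithelia, had 0.41 and 0.15, and Cdon, for a co-receptor, had -0.011 and -0.48, with adjusted p of 0.705 and 0.798 in limma. Smo, the signal transducer, had -0.16 and 0.31. Of 17 tested genes for Gli factors and their regulators, 8 were higher and 1 lower on both arrays. Gsk3b, a kinase that marks Gli proteins for processing, had 0.24 and 0.60, and Zic2, a relative of the Gli factors, had 0.16 and 0.15, with adjusted p of 0.535 and 0.830 in limma. The Zic2 probe was among the dimmest tested, brighter than the probes of only 0.080% of all genes.

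The primary cilium, where Smoothened acts, was covered by 6 genes, of which 3 were higher and 1 lower on both arrays. Arl13b had 0.14 and 0.28 and Ift88, a subunit of the transport machinery, had 0.049 and 0.19. Of 16 target genes tested, 7 were higher and 4 lower on both, and the median ratio was 0.080. Tbx2 and Tbx3, T-box genes of the ureteric mesenchyme, had ratios of 0.53 and 0.20 and of 0.33 and 0.39, with adjusted p of 0.615 and 0.481 in limma. Bmp4, a growth factor gene of the same mesenchyme, had 0.041 and 0.26.

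**Figure D4:**
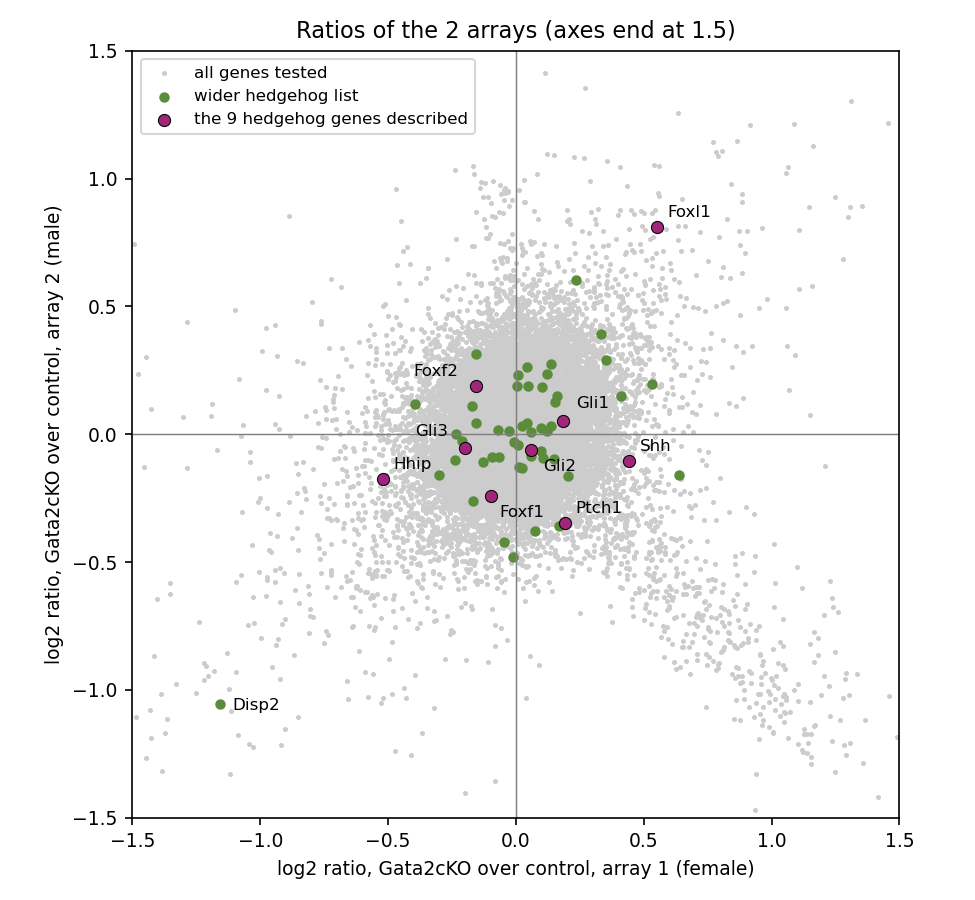
Log2 ratio of Gata2cKO over control on array 1 (female, horizontal) against array 2 (male, vertical) for all genes tested, with the wider hedgehog list and the 9 hedgehog genes marked; both axes end at 1.5, which leaves 42 genes outside. Foxl1 lies at 0.55 and 0.81 and Disp2 at -1.16 and -1.06, and the other hedgehog genes have mean ratios nearer to 0. Some of these still lie toward the edge, such as Gsk3b, with 317 genes at least as high, and Hhip, with 500 at least as low.

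Across all genes, 281 had a ratio above 0.5 on array 1 and below -0.5 on array 2, and 8 the reverse. Shh and Ptch1 had the signs of the larger of these groups, but at 0.44 and -0.11 and at 0.19 and -0.35 neither reached its limits.

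The genes whose ratio pair was nearest to a hedgehog gene, among genes of like brightness, are given as a description over 2 arrays. For Shh they were Zfp560, ENSMUST00000088510 and Il18, with 21 of 2002 genes within 0.1. For Ptch1 they were Kcnc1, Calcoco1 and Vsig10l, with 35 of 2659 within 0.1. For Gli1, near the centre of the plot, they were Limk1, Gm3252 and Auts2, with 132 of 2278 within 0.1.

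Promoters were searched for the 9-letter Gli motif GACCACCCA on both strands, in the RefSeq windows of 250 bases before to 50 after a gene's start, build GRCm38.p6. Of the 9 genes 5 had a window, Ptch1, Gli2, Gli3, Hhip and Foxf2, and 0 of the 5 held the exact motif, beside 0.253% of 32851 windows. No match says only that these letters are not in these windows.

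The authors' deposited table gave other values for most of these genes. In it Foxl1 stood at 0.999 and 1.304 on arrays 1 and 2, higher on both as with the scanner signals. For Ptch1, the authors' deposited table had 1.68 and 0.19 with probe 1 and 0.62 and 1.28 with probe 2, so there both probes were higher on both arrays. For Shh the table had -0.23 and -0.65, against 0.44 and -0.11 from the scanner signals. Hhip probe 1 stood at -0.21 and -0.12 in the authors' deposited table, and probe 2 at -0.19 and 0.28. These are log2 of the deposited signed folds, whose scale and centring are unknown and whose correlation with the scanner ratios over all probes was 0.44 on array 1 and 0.38 on array 2.

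**Figure D5:**
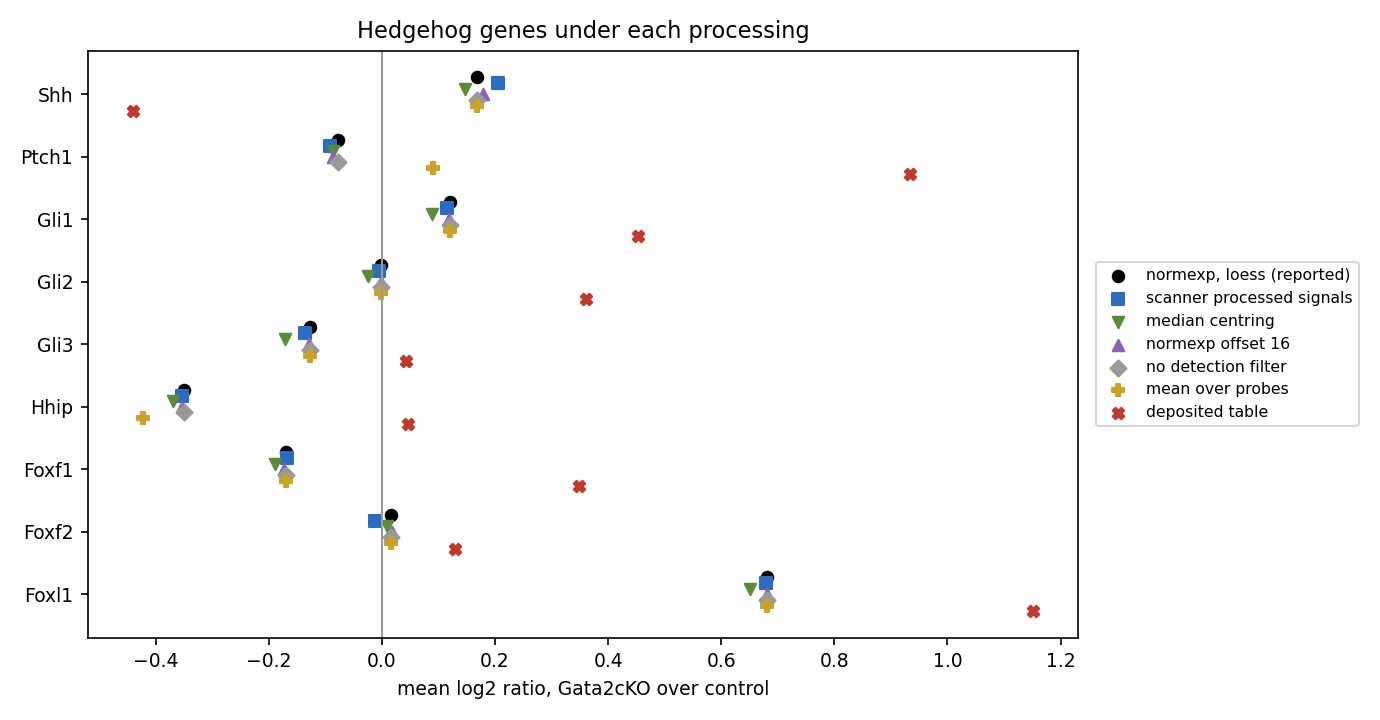
Mean log2 ratio of Gata2cKO over control of the 9 hedgehog genes under each processing of the signals, 1 mark per processing, with the reported one as the black circle. Foxl1 lies above 0.6 under each, and the deposited table (red crosses) stands apart from the other marks for most genes.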

How the data were processed

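The arrays compared control with Gata2cKO RNA of E14.5 ureters, 2 samples in all, each array giving 1 ratio. Per the file headers, the authors read the scans with Agilent Feature Extraction 10.7.3.1, and the deposited scanner files give each spot's mean signal and its local background as unnormalized linear intensity. The deposited files also give the software's processed signals, background-subtracted and dye-normalized per the file headers, and the log10 of their red-to-green ratio. The authors' deposited value table was treated as a score: its entries look like signed fold changes, with a median of 1 on both arrays and 28.0% and 28.3% of entries at exactly 1, and its scale and centring are unknown. Its direction was read from its correlation with the scanner ratios, 0.44 and 0.38.

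Of 44397 spots per array, 1224 positive and 153 negative control spots were left out after background correction, as were 255 and 178 spots with an outlier flag, and 0 spots were saturated. Signals were background-corrected with normexp (offset 50), ratios were normalized by loess (span 0.3), array 2 was turned, and spots were averaged per probe. Tested were the 25657 probes with more than 0.5 of their spots well above background on both arrays in 1 group, and each of the 20506 genes by its brightest probe. RefSeq accessions (GRCm38.p6) named 26412 probes, and 13017 kept the name in the file. Ratios were tested against 0, two-sided, with limma 3.58.1 in R 4.3.3 (1 residual degree of freedom, prior of 4.68 with an SD of 0.163), with Benjamini-Hochberg adjustment and a threshold of 0.05. Levels in each RNA came from scaling average brightness between arrays (Aquantile). A bias of the dyes shared by the arrays drops out of the mean but widens the SD, and the number of arrays limits the precision.

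The hedgehog genes, the lists and the tests were chosen with earlier results of these data known. Named were the 9 genes with every probe, Gata2 and Tbx18, the 3 nearest genes to Shh, Ptch1 and Gli1 by distance of the ratio pair among genes within 0.5 in log2 brightness, and, of the wider list, genes past the threshold or otherwise the 2 per role with the largest mean ratio of 1 sign on both arrays. Ihh, Dhh, Smo, Bmp4, the urothelial and ureteric mesenchyme markers, Smtn, Prph and the chromosomal neighbours were added after their values were seen. Alternatives were the processed signals, median centring, an offset of 16, no detection filter, the mean over probes, a trended and robust prior, the deposited table and each array alone. Another 2 probes, whose descriptions but not names mention Gli1 or Shh, were not well above background and were left out. Single values of some genes of the wider list are not reported here. A function making the same plain limma fit was tested on simulated ratios, and the other steps were not tested on simulated data. Software also included version 1.17.8 of data.table, jsonlite 2.0.0, Python 3.11.15, pandas 2.3.3 and matplotlib 3.10.9.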

Additional observations from a re-analysis of the deposited data

Results flagged for a closer look

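The female and the male array gave opposite signs for 4 hedgehog genes, and this difference was not tested, since each sex and each dye orientation is 1 array and the pair cannot be told apart. The log2 ratio of Shh was 0.44 on the female and -0.11 on the male array. That of Ptch1, by its brighter probe, was 0.19 and -0.35, while its other probe was above 0 on both. Gli2 stood at 0.059 and -0.062, and Foxf2 at -0.16 and 0.19. Opposite signs were found for 46.8% of all genes tested.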

How the results depend on the processing

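The mean ratios of Foxl1 and Gli1 over both arrays were above 0 in every alternative that was run, from 0.65 to 1.15 and from 0.089 to 0.45. With median centring the ratio of Gli1 on array 2 alone was -0.15. The count of the 9 hedgehog genes past the threshold in limma was 0 in each but the trended and robust prior, where it was 1 (Foxl1, 0.68, adjusted p = 0.00500), beside 2 of the wider list, 376 genes and 427 probes. Genes past the threshold numbered 165 with processed signals, 41 with an offset of 16, 54 without the filter, 0 with median centring (492 at an unadjusted p under 0.05) and 0 in the deposited table (972). Probes numbered 139, 35, 65, 0 and 6 in the same order. Of the wider list, 1 gene, Disp2, passed with processed signals, with an offset of 16, without the filter and with the mean over probes. In the deposited table the sign turned for Foxf1 (0.35), Gli2 (0.36), Gli3 (0.043), Hhip (0.046), Ptch1 (0.93) and Shh (-0.44), and the median of the 9 genes was 0.35. The mean over probes turned Ptch1 to 0.090 and processed signals turned Foxf2 to -0.013; the cause of these turns was not tested, except that for Ptch1 the second probe enters the mean. Median centring left all-gene medians of 0.099 on array 1 and -0.13 on array 2. Leaving out 1 array moved the median of the 9 genes between -0.062 and 0.059, and no test can then be made, since no residual degree of freedom is left. The reported test is itself paired, since each ratio sets a Gata2cKO RNA against the control of its own array.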
